A study of Mus with 8 samples.

Results

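C3, Hp, Cfb, C4b, C1ra, Serping1, Lcn2, Saa3 and Orm1 are complement and acute-phase genes, and these 9 genes, of 24013 in the count table, are described here in 3T3-L1 cells, a mouse preadipocyte line. They were selected by function, as rows of the table with these symbols, from a proposal made with the log2 ratios of these same 8 libraries known. Their values are therefore a description, with no test, and nothing is read from how many of them differed. All 9 passed the filter on low counts, but 5 of them (Hp, C4b, Lcn2, Saa3 and Orm1) had at most 5 counts in each C library at day -2. Saa3 and Orm1 passed the filter through day 1 libraries alone. Lcn2 and Cfb, each with 1 day -2 library over its cutoff, passed it only with day 1 libraries added.

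The study asked whether the homeodomain transcription factor Prep1, listed as Pknox1, holds back adipogenesis, and sequenced RNA before and after hormonal induction. C cells carried a lentiviral scrambled shRNA and P cells a lentiviral shRNA against Prep1. Both were selected pools of 3T3-L1 cells, grown in DMEM with BCS serum. RNA was taken 2 days before induction (day -2) and 1 day after it (day 1), from 2 biological replicas in each of the 4 groups: C day -2, P day -2, C day 1 and P day 1. The day 1 cells had been changed, 2 days after confluence, to a medium with 10% FBS, insulin at 1 μg/ml, dexamethasone at 1 μM and the phosphodiesterase inhibitor 3-isobutyl-1-methylxanthine at 0.5 mM. The day -2 cells had not. Hormones, serum, time and time since confluence thus differ together between the days and cannot be told apart. Only 1 of the Prep1 shRNAs used in the study is represented.

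Complement is a cascade of plasma proteins in which the classical, lectin and alternative pathways converge on cleavage of C3, whose fragments tag surfaces and recruit leukocytes. Acute-phase genes encode secreted proteins whose plasma levels climb in inflammation; the liver is their main source, and interleukin-6 and interleukin-1 signals, C/EBP factors and glucocorticoids are known to induce many of them. Adipose cells also make several of these proteins, among them C3, haptoglobin, lipocalin-2 and serum amyloid A3.

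In C cells 7 of the 9 genes passed the thresholds given below as higher 1 day after induction than before it, beside 10.7% of all genes tested. Among those with reads before induction the log2 ratio was highest for Lcn2 (9.83), Saa3 (6.98) and C3 (6.75) and lowest for C1ra (2.17). Cfb and Serping1 had 4 to 18 reads per library, too few to detect a 2-fold difference. C3 was lower in P cells at day 1, at 0.198 times the level of C cells. Hp was already present in P cells at day -2, at 19.9 times the level of C cells, and at day 1 at 0.665 times that level.

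Depth was 20428816 to 27614353 counts per library. At this depth 3 counts, taken as the floor of what a count of 0 allows, correspond to 0.107 to 0.160 CPM (reads of a gene scaled to a common library size with TMM factors, as edgeR gives them); intervals and floors here cover counting error only. The P replicas at day -2 stood apart from each other: the SD of their log2 differences over 5600 well-counted genes was 0.795, against 0.121 to 0.261 in the other groups. The summed level of 8 fibroblast and preadipocyte markers was 62637 CPM in replica 1 and 18260 CPM in replica 2. Most of that sum was Col1a1 (23560 and 4882 CPM) and Col1a2 (28501 and 7431 CPM), and not every marker followed it. Pdgfra was alike in the replicas (196 and 195 CPM), and Ly6a was higher in replica 2 (27.6 and 61.2 CPM). Values that rest on P day -2 and move with the choice of library are therefore also given without 1 or the other of its replicas. Leaving out either also takes the widest replica spread out of the fit, so that a call kept or gained there is no sign of stability. A gene was called different between groups where the edgeR adjusted p was under 0.1 and the ratio over 2 or under 0.5. Pknox1 counted 28.1 and 26.5 CPM in C day -2 and 17.3 and 18.3 CPM in P day -2. At day 1 it counted 38.1 and 36.5 CPM for C and 23.6 and 23.8 CPM for P. The ratios of P to C cells were 0.652 (edgeR adjusted p = 0.0558) and 0.636 (edgeR adjusted p = 0.0575), in the direction of the labels but short of the 0.5 that a call required.

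Markers of other cell types were also summed. All 8 fibroblast and preadipocyte markers were present, 6 of 7 hepatocyte markers were under 1 CPM in every library with a sum of 0.160 to 2.13 CPM, and 4 of 4 endothelial markers were under 1 CPM with a sum of 0.279 to 1.46 CPM. Of 7 macrophage and leukocyte markers 3 were under 1 CPM in every library, and their sum was 7.27 to 8.25 CPM in C day -2, 6.07 to 8.38 CPM in P day -2, 3.90 to 4.74 CPM in C day 1 and 4.96 to 7.19 CPM in P day 1. The members of that list did not move together. Csf1r fell in C cells from a mean of 5.35 to 0.237 CPM (edgeR adjusted p = 0.00126), Cd68 rose there by log2 1.06 (edgeR adjusted p = 0.0804), and Lyz2 was higher in P than in C cells at day -2, at a mean of 3.07 against 0.184 CPM (edgeR adjusted p = 0.0365). Ptprc, Adgre1 and Tyrobp were the 3 under 1 CPM. Adipocyte markers summed to 80.7 and 80.9 CPM in C day -2, 236 and 247 CPM in P day -2, 186 and 187 CPM in C day 1 and 584 and 627 CPM in P day 1. Most of that sum was Lpl, and the other members did not all follow it. With induction of C cells Cebpa (log2 4.37) and Cidec (log2 1.59) were also called higher. Fabp4 fell there by 1.01 on the log2 scale (edgeR adjusted p = 0.0602), and Adipoq, Plin1 and Pparg were not called. At day -2 Cebpa, Adipoq, Plin1, Fabp4 and Lpl were called higher in P than in C cells. Pparg (log2 -0.21) and Cidec (log2 1.16) were not called on that day. At day 1 Fabp4 (log2 6.01), Cidec (log2 5.66) and Lpl were called higher in P cells. Adipoq and Plin1 were too, from 3 and 1 reads each in the C libraries, while Cebpa and Pparg were not called. The part of either list in the results was not tested. In bulk RNA fewer cells expressing a gene and less RNA per cell cannot be told apart.

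**Figure D1:**
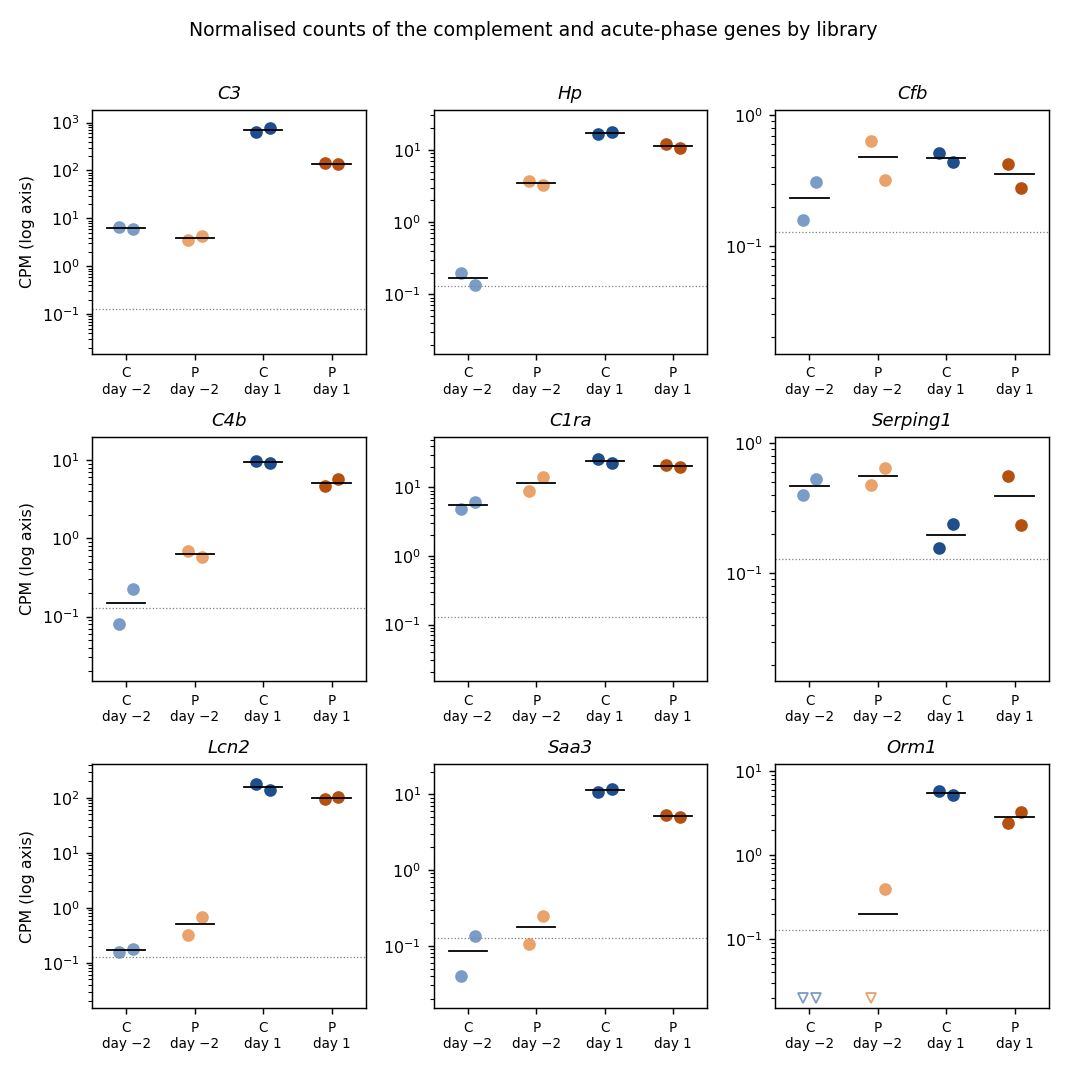
Normalised counts (CPM, log axis) of the 9 complement and acute-phase genes in each of the 8 libraries, grouped by cells and day; points are replicas, bars are group means, open triangles are libraries with 0 counts and the dotted line is the mean level of 3 counts. C3, Lcn2, Saa3, C4b and Orm1 are high on day 1 in both cell types, Hp is raised in P cells already at day -2, and Cfb and Serping1 stay below 1 CPM in every library.

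C3, the protein on which all complement pathways converge, counted 6.73 and 6.11 CPM in C day -2, and 3.51 and 4.21 CPM in P day -2. After induction it stood at 635 and 753 CPM in C cells and at 141 and 134 CPM in P cells. The 4 groups did not overlap: both P libraries lay below both C libraries on each day, and every day 1 library lay above every day -2 library. With 2 libraries against 2, an exact permutation test cannot go below p = 0.333, so separation is only described, here and for the genes below. The log2 ratio of C3 of day 1 to day -2 was 6.75 (SE 0.20) in C cells, a 108-fold difference, and 5.15 (SE 0.19) in P cells, a 35.5-fold difference. The P to C log2 ratio was -0.73 (SE 0.17) before induction and -2.33 (SE 0.16) after it. The difference in induction response, P minus C, is the day 1 ratio less the day -2 ratio, and was -1.61 (SE 0.23) on the log2 scale. It passed the threshold with all libraries and without either P day -2 library (log2 -1.76 and -1.46). The latter fits lack the widest replica spread, so that passing there is no sign of stability. The difference missed the threshold with library totals, with a replicate block and when any 1 of the other 6 libraries was left out. Its values were from -1.76 to -1.46 over the 8 omissions.

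C4b, the mouse C4 of the classical and lectin pathways, counted 0.08 and 0.22 CPM in C day -2, and 0.69 and 0.57 CPM in P day -2. The day 1 libraries gave 9.75 and 9.16 CPM for C and 4.62 and 5.70 CPM for P. Its groups also stood apart, but P cells were the higher ones at day -2 and the lower ones at day 1. The day 1 to day -2 log2 ratio was 5.95 (SE 0.42) in C cells, with 5.39 without replica 1 and 6.80 without replica 2 of C day -2, and 3.03 (SE 0.35) in P cells. The P to C log2 ratio was 2.04 (SE 0.47) at day -2, from only 7 counts in both C libraries together, and -0.87 (SE 0.30) at day 1. The day -2 call was kept without either P day -2 library (log2 1.93 and 2.19). Those fits lack the widest replica spread, so that a call kept there is no sign of stability. The call was lost without any 1 of the other 6 libraries, with log2 ratios of 1.48 to 2.89 over the 8 omissions. The difference of its responses was -2.92 (SE 0.55), with values over the omissions from -3.77 to -2.35. That call was lost in the same 6 omissions, with library totals, with a replicate block and at an adjusted p under 0.05. Its close relative C4a, the sex-limited protein gene, counted 1.00 to 2.89 CPM over all libraries and was not called in any comparison; how reads shared by C4a and C4b were counted is not given in the sources used here, so that their split is uncertain.

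C1ra, a protease of the C1 complex that starts the classical pathway, was among the more abundant of these genes before induction. It counted 4.82 and 6.11 CPM in C day -2, and 9.0 and 14.1 CPM in P day -2. By day 1 C libraries were at 26.3 and 23.0 CPM and P libraries at 20.9 and 19.9 CPM. The replicas of P day -2 were unequal, yet both lay above the C libraries of that day. The day 1 to day -2 log2 ratio was 2.17 (SE 0.26) in C cells, and in P cells it was 0.82 (SE 0.25), which did not pass the ratio threshold except without P day -2 replica 2 (log2 1.19). At day -2 the P to C log2 ratio of 1.08 (SE 0.26) passed, but only just: it was kept when P day -2 replica 1 was left out (log2 1.37) and lost without any 1 of the other 7 libraries, with 0.72 without P day -2 replica 2. At day 1 it was -0.27 (SE 0.25). Its paralog C1rb gave 1.59 to 12.0 CPM and is subject to the same doubt about shared reads as C4a.

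Cfb, factor B, the protease subunit of the alternative pathway C3 convertase, counted 4 to 13 reads per library, 0.16 to 0.64 CPM. Serping1, the C1 inhibitor, counted 4 to 18 reads per library, 0.16 to 0.64 CPM. Neither passed the thresholds in any comparison or under any alternative analysis, and with so few reads their standard errors were 0.57 to 0.64 on the log2 scale in the 4 comparisons of groups. The day 1 to day -2 log2 ratio of Serping1 in C cells, -1.20 (SE 0.63), was the lowest of the 9. A difference of 2-fold in either gene was not detectable at this depth.

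Hp encodes haptoglobin, which binds free haemoglobin. It counted 0.20 and 0.13 CPM in C day -2 (5 and 3 reads), and 3.67 and 3.21 CPM in P day -2 (69 and 90 reads). In the induced libraries it counted 16.7 and 17.6 CPM for C and 12.1 and 10.6 CPM for P. P cells thus lay far above C cells before induction and somewhat below them after it, and the replicas of P day -2, so unlike each other over the transcriptome, were close for this gene. The P to C log2 ratio was 4.32 (SE 0.29) at day -2, with 4.23 without replica 1 and 4.40 without replica 2 of P day -2, and -0.59 (SE 0.19) at day 1. From 8 reads in both C libraries together, the ratio at day -2 has a counting interval of 10.0 to 47.7 (exact binomial, 95%). The day 1 to day -2 log2 ratio was 6.63 (SE 0.29) in C cells and 1.73 (SE 0.21) in P cells, a difference of -4.91 (SE 0.35). In contrast to C3, the larger part of it was the gap between P and C cells at day -2. Its call was kept under every alternative in which Hp was tested.

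Lcn2 encodes lipocalin-2, which binds bacterial siderophores. It counted 0.16 and 0.18 CPM in C day -2, and 0.32 and 0.68 CPM in P day -2. Upon induction C libraries held 179 and 136 CPM and P libraries 95.8 and 103 CPM. Every day 1 library was far above every day -2 library, and the P libraries of day 1 lay below the C libraries. The day 1 to day -2 log2 ratio was 9.83 (SE 0.38) in C cells and 7.56 (SE 0.33) in P cells, both from very few reads at day -2 (8 in the C libraries and 25 in the P libraries). Without 1 or the other P day -2 library the latter was 7.17 or 8.26. By fitted log2 ratio it ranked 3 among 13339 genes in C cells and 19 in P cells, in an order that also holds genes at 0 in 1 of the groups. The P to C log2 ratio was 1.61 (SE 0.48) at day -2 and -0.67 (SE 0.23) at day 1, neither of which was called; the day -2 ratio was 1.99, and called, without P day -2 replica 1 and 0.90, not called, without replica 2.

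Saa3, a serum amyloid A made outside the liver, counted 1 and 3 reads in C day -2, and 2 and 7 reads in P day -2. Its day 1 reads were 274 and 297 in the C and 124 and 106 in the P libraries. These are 10.8 and 11.8 CPM for C and 5.30 and 4.95 CPM for P, again without overlap. The pooled ratio of day 1 to day -2 in C cells was 135, with a counting interval of 52.4 to 497 (exact binomial, 95%), and the fitted log2 ratio was 6.36 without replica 1 and 7.98 without replica 2 of C day -2. In P cells the log2 ratio was 4.73 (SE 0.43), with 4.32 without replica 1 and 5.53 without replica 2 of P day -2. The P to C log2 ratio was 1.11 (SE 0.65) at day -2, with 1.52 without replica 1 and 0.32 without replica 2 of P day -2, and it was -1.14 (SE 0.31) at day 1. The last of these was called only when either P day -2 library was left out (log2 -1.24 to -1.09 over the 8 omissions), by DESeq2, and in a fit of these 2 groups alone. The related Saa1 and Saa2 were too low to be tested.

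Orm1 encodes orosomucoid, a plasma carrier of small lipophilic compounds. It had 0 reads in both C libraries of day -2, and 0 and 11 reads in P day -2. On day 1 there were 145 and 132 reads in the C libraries and 56 and 70 in the P libraries. In C cells it was at least 43.5-fold higher on day 1, taking 3 counts per library as the floor at day -2. In P cells the log2 ratio was 3.65 (SE 0.86), and the call was lost without either P day 1 library and in a fit of the P groups alone. The ratio was 2.82 without P day -2 replica 1. Replica 2 of that group holds all 11 of the early reads, and without it the fitted value of 9.03 is a ratio to 0 reads and no bound. At day 1 the P to C log2 ratio was -0.96 (SE 0.68). Its neighbour Orm3 counted 0 and 4 reads in C day -2, and 3 and 7 in P day -2, then 171 and 133 in C day 1 and 148 and 150 in P day 1. Orm2 was at 0 in both C day -2 libraries and at least 13.7-fold higher in C day 1. How reads shared by the orosomucoid genes were counted is not given in the sources used here, so that Orm1, Orm2 and Orm3 are uncertain individually.

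**Figure D2:**
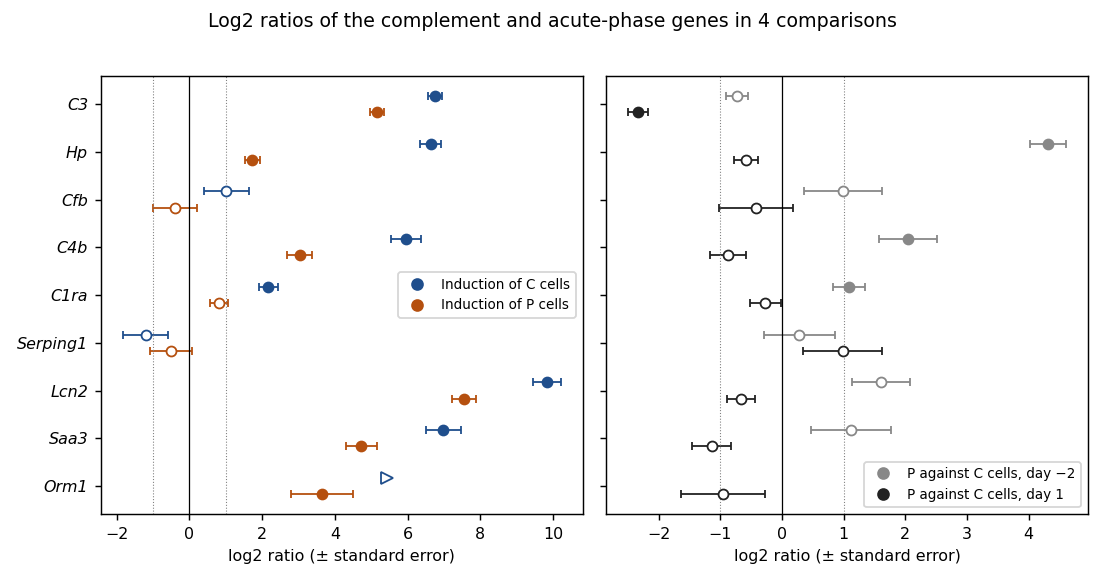
Log2 ratios (horizontal axis, bars are standard errors) of the 9 genes for induction in C and P cells (left) and for P against C cells on each day (right). Filled points passed the thresholds, open points did not, dotted lines mark ratios of 2 and 0.5, and the open triangle of Orm1 is a lower bound; Orm1 at day -2 is not drawn on the right because C cells had 0 reads. Of the points drawn, Hp has the largest positive difference between P and C cells at day -2 (log2 4.32) and C3 the largest negative one at day 1 (log2 -2.33).

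By the rule for calls 7 of the 9 genes (C3, Hp, C4b, C1ra, Lcn2, Saa3 and Orm1) were higher after induction of C cells, and 10.7% of all 13339 genes tested were called higher and 9.68% lower there. In P cells 6 were higher (C1ra was not), beside 7.65% of all genes higher and 10.4% lower. P cells exceeded C cells at day -2 in 3 (Hp, C4b and C1ra), beside 4.83% of all genes higher and 2.15% lower. At day 1 they were below C cells in 1, C3, beside 1.83% of all genes higher and 2.23% lower. The response to induction was smaller in P cells for 3 (C3, Hp and C4b) by the test of the difference itself, which was called at an adjusted p under 0.1 with no ratio threshold; over all genes 0.435% were called with a larger and 1.93% with a smaller log2 response. These calls rest on the contrasts from which the genes were proposed and carry no weight as a count.

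The median log2 ratio of the 9 genes was 6.63 for induction in C cells (5.95 with Orm1 at its bound) and 3.03 in P cells, against -0.01 and 0.02 over all genes tested. For P relative to C cells it was 1.11 at day -2, with 8 of 9 ratios above 0 and C3 below. At day 1 it was -0.67, with 8 of 9 below 0 and Serping1 above. The medians of all genes were 0.01 on either day. The counts of positive and negative ratios were the same with TMM factors, DESeq2 size factors and library totals. Each group of libraries enters 2 of the 4 comparisons, so that their values are only set side by side.

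The other genes of these pathways were taken from lists of 104 genes, of which 52 had enough counts to be tested. The lists were chosen with earlier results of these data known, and some of the 52 passed the filter on low counts only through day 1 libraries. Their counts are thus a description. In C cells 30 of the 52 rose with induction and 6 fell, beside 10.7% and 9.68% of all genes. In P cells 19 rose and 7 fell, beside 7.65% and 10.4%. At day -2 12 were higher and 1 lower in P than in C cells, beside 4.83% and 2.15% of all genes, and the number higher ranged from 2 to 16 with 1 library left out. At day 1 2 were higher and 2 lower, beside 1.83% and 2.23% of all genes. The induction response was smaller in P cells for 8, a count of 0 to 25 with 1 library left out, and larger for 1, with 0 to 13. Over all genes 1.93% were called with a smaller and 0.435% with a larger response. The median log2 ratio of the 52 was 1.59 for induction of C and 0.91 for induction of P cells. For P relative to C cells it was 0.49 before and -0.14 after induction.

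**Figure D3:**
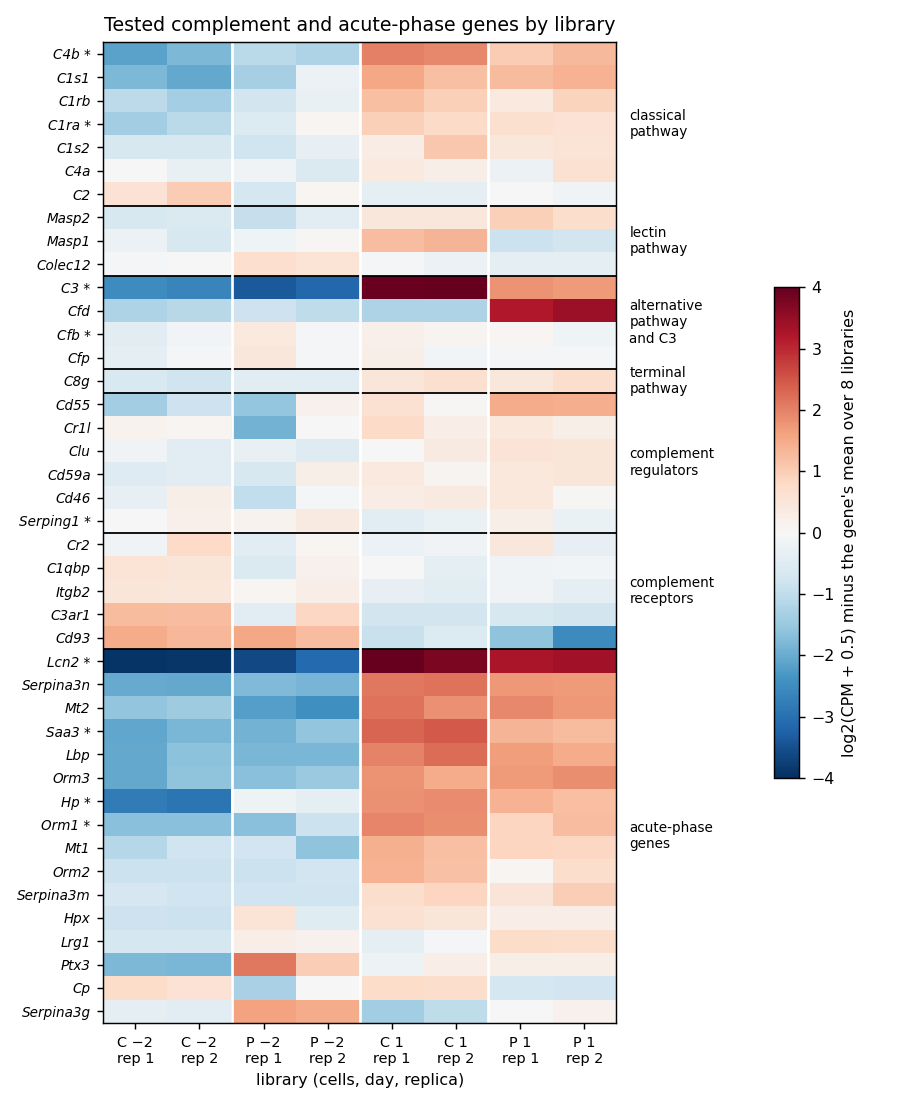
Level of each tested complement and acute-phase gene in each library, as log2(CPM + 0.5) minus the gene's mean over the 8 libraries (colour, limited to 4 on either side of 0), with genes grouped by pathway and the 9 described genes marked with an asterisk. Most acute-phase genes are blue at day -2 and red at day 1 in both cell types, while Ptx3 and Serpina3g are highest in P cells at day -2 and Cfd is red in P cells at day 1 alone.

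Among 21 tested complement genes outside the 9, 7 rose and 4 fell in C cells, beside 10.7% and 9.68% of all genes. In P cells 8 rose and 3 fell, beside 7.65% and 10.4%. The same shares stand beside the counts of the single complement lists. In the classical pathway 3 of 5 rose in C cells and 3 of 5 in P cells. C1s1, the partner protease of C1r and the genomic neighbour of C1ra, counted 2.63 and 2.08 CPM in C day -2, and 3.78 and 8.60 CPM in P day -2. Its induced levels were 31.2 and 24.5 CPM for C and 25.5 and 27.5 CPM for P. Its log2 ratio with induction was 3.56 (SE 0.41, edgeR adjusted p = 0.00141) in C cells and 2.09 (SE 0.38, edgeR adjusted p = 0.0103) in P cells. The latter was 1.62 without replica 1 and 2.82 without replica 2 of P day -2. C1rb rose by log2 2.55 (edgeR adjusted p = 0.00189) and 1.28 (edgeR adjusted p = 0.0263), the latter call lost without P day 1 replica 2 (log2 0.99) and in a fit of the P groups alone. The genes of C1q, C1qa, C1qb and C1qc, which macrophages make, were too low to be tested, as were 6 of 7 terminal pathway genes.

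Of 5 tested complement regulators outside the 9, Cd55, a membrane inhibitor of the C3 convertases, was the 1 that rose in C cells. Cd55 was called there at log2 1.57 (SE 0.58, edgeR adjusted p = 0.0897), a call kept only without 1 of the P day -2 libraries (log2 1.26 to 1.93 over the 8 omissions). In P cells 2 of the 5 rose, Cd55 by log2 1.98 (SE 0.57, edgeR adjusted p = 0.0498; 1.33 without replica 1 and 3.26 without replica 2 of P day -2) and Clu, clusterin, by log2 1.07 (SE 0.28, edgeR adjusted p = 0.0363). Both calls were lost without either P day 1 library and in a fit of the P groups alone, and that of Clu also without P day -2 replica 2 (log2 0.96).

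Cfd, adipsin, the protease that cleaves factor B and a known product of adipocytes, had 0 and 1 reads in C day -2, and 3 and 2 reads in P day -2. In the induced C libraries it had 0 reads, and in the induced P libraries 240 and 255. It was at least 93.2-fold higher in P than in C cells at day 1 (edgeR adjusted p = 0.00374). It passed the filter on low counts through those P libraries alone, so this value is descriptive only. Only the induced P cells held it above the floor in both replicas, and the adipocyte markers summed highest in those same libraries. That sum was mostly Lpl, and a relation of Cfd to it was not tested.

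Masp1, which encodes proteases of the lectin pathway and the activator of factor D, counted 17.1 and 12.9 CPM in C day -2, and 17.9 and 20.7 CPM in P day -2. It then counted 48.5 and 53.1 CPM in C day 1 and 10.9 and 12.0 CPM in P day 1. It rose with induction in C cells by log2 1.76 (SE 0.20, edgeR adjusted p = 0.00125), whereas in P cells its log2 ratio was -0.75 (SE 0.19), short of the ratio threshold. At day 1 it was lower in P cells by a log2 ratio of -2.14 (SE 0.20, edgeR adjusted p = 0.00407), of a size like that of C3, and the difference of its responses was -2.51 (SE 0.27, edgeR adjusted p = 0.0130). That last call was lost without either P day 1 library (log2 -2.73 to -2.32 over the omissions).

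Of 5 tested complement receptors 3 fell with induction in C cells and 2 in P cells. Cd93, a surface protein long described as a C1q receptor, fell by log2 2.46 in C cells (edgeR adjusted p = 0.0193; lost without either C day -2 library or C day 1 replica 1) and by log2 4.67 in P cells (edgeR adjusted p = 0.00438). The latter was between -7.26 and -3.83 with 1 library left out. C3ar1, the receptor of the C3a fragment, was looked at after its values were seen: it had 38 and 33 reads in C day -2, and 2 and 28 reads in P day -2. In C day 1 it had 0 reads in both libraries, and in P day 1 it had 1 and 0. The receptor was thus under the floor of 3 counts in all day 1 libraries, where C3 was high. It was also under that floor in P day -2 replica 1, where C3 was lowest (3.51 CPM). A relation between the levels of C3ar1 and C3 was not tested.

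**Figure D4:**
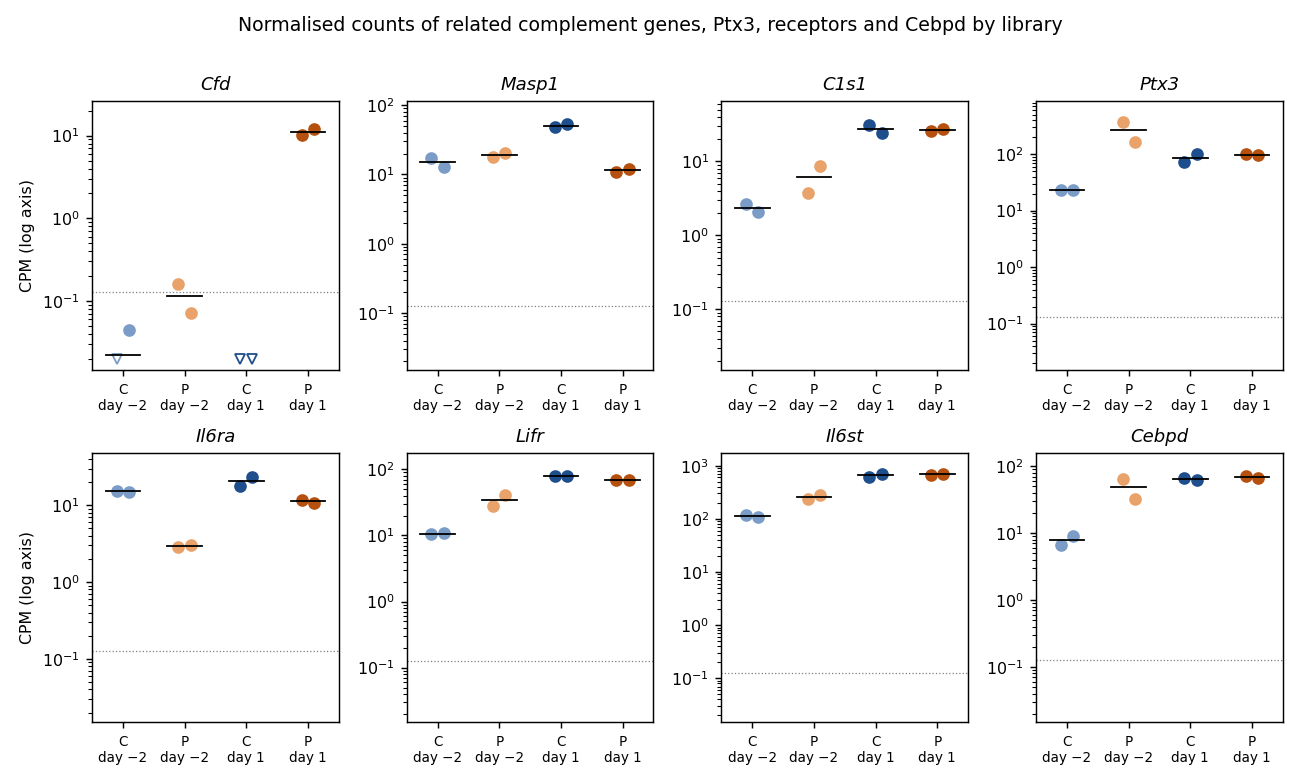
Normalised counts (CPM, log axis) of 8 related genes in each library, drawn like the plot of the described genes, with open triangles for 0 counts and a dotted line at the mean level of 3 counts. At day 1 Cfd is higher and Masp1 lower in P than in C cells, and at day -2 Ptx3, Lifr, Il6st and Cebpd are higher and Il6ra lower in P than in C cells.

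Among 12 tested acute-phase genes outside the 9, 10 rose and 1 fell with induction of C cells, beside 10.7% and 9.68% of all genes. In P cells 7 rose and 2 fell, beside 7.65% and 10.4%. Orm2, Orm3, Serpina3m, Serpina3n and Lbp passed the filter on low counts through day 1 libraries alone. Lrg1, with 1 day -2 library over its cutoff, passed it only with day 1 libraries added. These genes could be tested only because of their day 1 levels, so their calls and p-values are descriptive only. Serpina3n, an inhibitor of serine proteases, counted 0.22 to 0.37 CPM in the 4 day -2 libraries, 12.3 and 13.1 CPM in C day 1 and 9.53 and 9.29 CPM in P day 1, with log2 ratios of 5.75 (SE 0.26, edgeR adjusted p = 6.2e-05) and 4.75 (SE 0.24, edgeR adjusted p = 1.3e-04). Lbp, the lipopolysaccharide binding protein, rose by log2 5.60 (SE 0.40, edgeR adjusted p = 2.4e-04) and 5.02 (SE 0.40, edgeR adjusted p = 5.1e-04). The metallothionein gene Mt2 rose by log2 3.52 (SE 0.20, edgeR adjusted p = 9.9e-05) and 4.20 (SE 0.20, edgeR adjusted p = 1.3e-04). Orm3 rose by log2 6.07 (SE 0.71, edgeR adjusted p = 0.00155) and 4.95 (SE 0.63, edgeR adjusted p = 0.00282). With 1 library left out the C cell values of Lbp were 5.07 to 6.40, and without C day -2 replica 2 no Orm3 read remained at day -2 in C cells. None of these 4 was called between P and C cells on either day.

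A smaller group of acute-phase genes behaved differently from Lcn2 or Saa3. Ptx3, a soluble pattern receptor that binds C1q, counted 23.5 and 23.4 CPM in C day -2, and 366 and 166 CPM in P day -2. With induction the libraries came to 71.9 and 100.5 CPM for C and 98.7 and 98.0 CPM for P. Ptx3 was higher in P cells at day -2 by log2 3.51 (SE 0.39, edgeR adjusted p = 0.00483; 2.84 without replica 1 and 3.96 without replica 2 of P day -2). With induction it rose in C cells by log2 1.88 (SE 0.37, edgeR adjusted p = 0.0112) and fell in P cells by 1.43 (SE 0.36, edgeR adjusted p = 0.0323). The fall in P cells was lost without P day -2 replica 1 (log2 -0.77) or either P day 1 library. At day 1 the P and C libraries overlapped.

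Serpina3g, a gene of the serpin family, was higher in P cells on both days, by log2 2.17 (SE 0.26, edgeR adjusted p = 0.00620) and 1.59 (SE 0.27, edgeR adjusted p = 0.0278). The first call was lost without either C day -2 library (log2 2.10 to 2.23) and the second without any 1 of the day 1 libraries (log2 1.31 to 1.88). The negative acute-phase genes, such as Alb and Ttr, were too low to be tested, all 6 of them.

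Genes of the cytokine receptors and transcription factors that induce acute-phase genes were counted as a further list, of which 19 were tested. With induction 13 rose and 1 fell in C cells, beside 10.7% and 9.68% of all genes. In P cells 4 rose and 2 fell, beside 7.65% and 10.4%. At day -2 8 were higher and 1 lower in P than in C cells, beside 4.83% and 2.15%. At day 1 Lif was the 1 gene called, lower, beside 2.23% of all genes lower and 1.83% higher. Il6st, the signalling receptor chain gp130, counted 120 and 110 CPM in C day -2, and 233 and 284 CPM in P day -2. At day 1 it had 620 and 688 CPM in the C and 679 and 700.5 CPM in the P libraries. The P to C log2 ratio was 1.17 (SE 0.16, edgeR adjusted p = 0.0100) at day -2 and 0.08 (SE 0.16) at day 1. Lifr, the receptor of leukemia inhibitory factor, was higher in P cells at day -2 by log2 1.69 (SE 0.21, edgeR adjusted p = 0.00671). Both day -2 calls were lost without either C day -2 library (log2 1.01 to 1.31 for Il6st and 1.37 to 1.96 for Lifr).

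Il6ra, the ligand binding chain of the interleukin-6 receptor, went the other way. It counted 15.5 and 14.9 CPM in C day -2, and 2.88 and 3.00 CPM in P day -2. Its day 1 values were 18.0 and 23.0 CPM in the C and 11.8 and 10.7 CPM in the P libraries. P cells were lower at day -2 by a log2 ratio of -2.37 (SE 0.20, edgeR adjusted p = 0.00231), and with induction it rose in P cells by log2 1.93 (SE 0.20, edgeR adjusted p = 0.00129). Lif, the leukemia inhibitory factor gene, fell with induction by 1.59 in C cells (SE 0.40, edgeR adjusted p = 0.0290) and by 2.72 in P cells (SE 0.45, edgeR adjusted p = 0.00733; -1.93 without replica 1 and -3.23 without replica 2 of P day -2), the former call lost without any 1 of the C libraries (log2 -1.66 to -1.48). At day 1 its P to C log2 ratio was -1.88 (SE 0.44, edgeR adjusted p = 0.0754), a call kept only without 1 of the P day -2 libraries (log2 -1.99 to -1.82). The factors Cebpa and Cebpd were higher in P cells at day -2, by log2 2.75 (SE 0.41, edgeR adjusted p = 0.0131) and 2.63 (SE 0.34, edgeR adjusted p = 0.00819), and their P to C log2 ratios at day 1 were 0.14 (SE 0.34) and 0.10 (SE 0.31). The Cebpa call at day -2 was lost without either C day -2 library (log2 2.09 to 3.22) and the Cebpd call without C day -2 replica 1 (log2 2.08 to 3.04).

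The tested genes with the profile most like that of C3, by the root mean square difference of log2 CPM over the 8 libraries after centring each gene, were Krt15 (0.287), Wnt4 (0.478) and Wfdc12 (0.557). Krt15, a keratin, averaged 1.32 CPM in C day -2, 0.969 CPM in P day -2, 154 CPM in C day 1 and 31.9 CPM in P day 1. Those most like Hp were Psmb9 (0.338), a subunit of the immunoproteasome, Oas2 (0.368), an interferon-stimulated oligoadenylate synthetase, and Gbp6 (0.436), a guanylate-binding protein. Psmb9 averaged 0.144 CPM in C day -2, 2.22 CPM in P day -2, 11.2 CPM in C day 1 and 12.6 CPM in P day 1. No gene was among the 3 nearest of both.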

How the data were processed

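RNA from 8 cultures of 3T3-L1 cells was sequenced by the authors on Ion-Torrent. Per the labels and the study's methods, reads were aligned to mm9 with TopHat2 2.0.9 and the deposited values are whole-number counts per NCBI gene, not normalized, counted over UCSC refGene models. Strand use is not given in the sources used here. Symbols came from RefSeq tables (GRCm38.p6), used for names and neighbours only; 84 of 24013 genes had none. The study tested with DESeq and an adjusted p of 0.1. Here edgeR 4.0.16 (limma 3.58.1, R 4.3.3) fitted 1 quasi-likelihood model with a mean for each of 4 groups, TMM factors and filterByExpr, with Benjamini-Hochberg adjustment over 13339 genes. CPM used the TMM-scaled totals; the prior count was 2. The calculations were tested on simulated data.

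The 9 genes and all lists were chosen with earlier results of these data known; 2 genes of the lists are not reported here. Named besides them are Pknox1, close paralogs, the 3 nearest profiles of C3 and Hp, and listed genes called in a comparison with a mean of at least 50 counts, at most 6 higher and 6 lower per comparison. Replicas are labelled only by number, so that p-values measure the spread between cultures of the same pools; with 2 against 2, an exact permutation test of a single gene cannot go below p = 0.333. Replicas differed by more than sampling noise. Alternatives were DESeq2 1.42.0, its size factors, library totals, no filter, a minimum of 10 counts in all libraries, only the 2 groups compared, a replicate block, an adjusted p of 0.05, dropping the ratio threshold, and leaving out each library.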

Additional observations from a re-analysis of the deposited data

Results flagged for a closer look

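The genes below were singled out because the interaction test of edgeR gave an adjusted p under 0.1, that is, the log2 ratio of day 1 to day -2 was not alike in P and C cells. Of the genes described, C3 (-1.61), Hp (-4.91) and C4b (-2.92) had a smaller log2 response in P cells; these were selected with the same contrast known, and no p is given. Among the listed genes Masp1 (-2.51, edgeR adjusted p = 0.0130), Lifr (-1.91, edgeR adjusted p = 0.0374), Stat3 (-1.43, edgeR adjusted p = 0.0381), Ptx3 (-3.32, edgeR adjusted p = 0.0388), Cebpd (-2.53, edgeR adjusted p = 0.0617), Il1r1 (-0.90, edgeR adjusted p = 0.0836), Cebpa (-2.61, edgeR adjusted p = 0.0836) and Il6st (-1.09, edgeR adjusted p = 0.0870) had a smaller response in P cells. Il6ra had a larger one (1.51, edgeR adjusted p = 0.0616). The lists were also chosen with earlier results of these data known, so these p-values are descriptive only. Without replica 1 or replica 2 of P day -2 the value of Ptx3 was -2.67 or -3.77 and that of Cebpa -1.97 or -3.08. None of the 9 listed genes named here kept its call in each of the fits that left out 1 of the 8 libraries, and of the described genes Hp did.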

How the results depend on the processing

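Over 17 alternatives, 646 of 707 log2 ratios of the 9 genes kept their side of the thresholds, 40 lost a call, 21 gained one and 0 changed sign while called. The calls of all 7 genes in C cells, of C3, Hp, C4b, Lcn2 and Saa3 in P cells, of Hp at day -2, of C3 at day 1 and of Hp in the difference of responses held wherever they were tested. For the 9 genes, counts moved as follows. A minimum of 10 counts in all libraries, which removes most of them, left 2 higher in C cells, 1 higher in P cells, 1 higher at day -2 and 1 in the difference of responses. DESeq2 gave 5 higher at day -2, 2 lower at day 1 and 6 lower in the difference of responses. At day -2 1 was higher at an adjusted p under 0.05 and 1 in a fit of the 2 groups alone, which gave 2 lower at day 1; with no ratio threshold C3 was the 1 lower gene at day -2. Library totals left 1 in the difference of responses.

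For the listed genes, the stricter filter gave 2 lower in C cells, 4 lower in P cells and 1 higher at day 1. Fits of 2 groups alone gave 11 higher and 3 lower in P cells, 0 higher at day -2 and 4 higher and 5 lower at day 1. At day -2 library totals gave 7 higher, and DESeq2, library totals, no filter and no ratio threshold 2 lower each. DESeq2 and no filter gave 4 lower at day 1, where an adjusted p under 0.05 gave 1. In the difference of responses DESeq2 gave 2 higher and 13 lower, an adjusted p under 0.05 gave 0 and 4, and library totals 5 lower. The causes were not tested.

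Leaving out 1 library gave, for the 9 genes, 7 higher in C cells, 5 to 7 higher in P cells, 1 to 5 higher at day -2, 1 to 2 lower at day 1 and 1 to 7 lower in the difference of responses. For the listed genes it gave 23 to 30 higher and 1 to 6 lower in C cells, 12 to 24 and 3 to 8 in P cells, 2 to 16 and 1 to 8 at day -2, 1 to 4 and 1 to 4 at day 1, and 0 to 13 and 0 to 25 in the difference of responses. Leaving out 1 P day -2 library leaves that group without a spread of its own, and the fit takes the spread from the other groups. Counts of calls from those fits are not comparable with those from all libraries, and why they changed was not tested.

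Whether the replicate numbers pair the samples is not given by the labels. Of 6 correlations of same-numbered deviations 5 were negative. The lowest was -0.36, for P day -2 with C day 1, and the highest 0.21, for C day -2 with P day -2. So few values cannot settle whether samples were paired. With a replicate block the 9 genes gave 1 higher at day -2 and 1, Hp, in the difference of responses (C3 and C4b were no longer called), and the listed genes 0 higher and 2 lower there and 1 lower at day 1; other counts stayed within 1.5 times. The block is not read as a weaker effect. Library totals moved the median of all genes by over 0.1 in each comparison, and changed the split of all calls from 1432 higher and 1291 lower to 1215 and 1455 in C cells, from 1020 and 1386 to 1288 and 1074 in P cells, and from 644 and 287 to 453 and 365 at day -2. The fit of 2 groups and the ratio threshold could not be applied to the difference of responses. Depth limits Cfb, Serping1 and every ratio to day -2 levels of a few reads.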

Other observations

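In P cells at day -2 the listed genes differed between the replicas by very different amounts. Il6, the interleukin-6 gene, had 23 reads in replica 1 and 178 in replica 2, and Osmr, the oncostatin M receptor gene, counted 48.9 and 162 CPM. Il1r1, the interleukin-1 receptor gene, counted 134 and 137 CPM in the same libraries. These 3 genes were set side by side after their values were seen. Lrg1, an acute-phase glycoprotein gene also noticed in that way, had 0 reads in both C libraries at day -2 and 9 and 12 in the P libraries. On day 1 it had 3 and 7 for C and 20 and 18 for P.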
